A study of Mus musculus with 46 samples.

Results

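The comparison described here set mammary tumors driven by an activated kinase or Ras oncogene against mammary tumors driven by c-Myc or Wnt1. Its members were 24 of the 46 arrays of the series, taken by title from 5 transgenic models. One side held 16 arrays, with 5 of MMTV-H-Ras (titled MMTV-Hras), 5 of MMTV-Her2/neu (titled MMTV-H2N) and 6 of MMTV-PymT. The other side held 8 arrays, with 4 of MMTV-c-Myc (titled MMTV-C-Myc) and 4 of MMTV-Wnt1 (titled MMTV-Wnt). The reference was 5 arrays of normal mammary gland from late-pregnant mice (titled FVB pregnant). Each array was a primary tumor or gland of an individual female mouse on the FVB background, so strain and promoter did not separate the sides, and the age of the mice was not given in the sources used here. All 5 transgenes were driven by the long terminal repeat of the mouse mammary tumor virus (MMTV), which is active in mammary epithelium and also in other tissues such as salivary gland and lymphoid cells.

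H-Ras is a small GTPase that passes signals from growth factor receptors to the Raf, MEK and ERK kinases. Her2/neu is a receptor tyrosine kinase of the epidermal growth factor receptor (ErbB) family, and the polyoma middle T antigen (PymT) is a viral membrane protein that recruits Src-family kinases and phosphatidylinositol 3-kinase. c-Myc is a transcription factor that raises ribosome production and cell growth, and Wnt1 is a secreted ligand that stabilizes beta-catenin and switches on its target genes. The mammary epithelium has an inner luminal layer, whose alveolar cells make milk under the control of prolactin, STAT5 and the transcription factor Elf5, and an outer basal or myoepithelial layer that contracts and carries keratins 5 and 14.

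RNA was measured on 1-colour Affymetrix arrays, and every level below is the deposited log2 value, in which 1 unit is a 2-fold difference and values near 2 are at the floor of the method. A fold that starts at the floor depends on where the floor lies. Differences between sides are the mean of the 3 kinase and Ras model means minus the mean of the 2 Myc and Wnt1 model means, each with its standard error (SE), so that each model counted equally. The medians of the 24 arrays lay between 6.48 and 7.40. Because the grouping was proposed with results of these arrays known, and many genes below were picked for their size in this very contrast, the side differences are given as a description without p-values. The number of models, 3 against 2, is small, and the standard errors treat the tumors of a model as independent.

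The epithelial label was checked first. Keratin 8 and keratin 18, the keratins of simple epithelia, were high in all 24 tumors, with Krt8 at 13.22 to 14.55 on the kinase and Ras side and 11.63 to 14.61 on the other, and Krt18 at 13.5 to 14.49 and 12.75 to 14.71. The epithelial adhesion gene Epcam was at 13.08 to 14.28 in the kinase and Ras tumors. It was at 13.09, 12.23, 12.14 and 12.67 in the 4 MMTV-c-Myc tumors and at 13.75, 13.73, 3.6 and 13.11 in the 4 MMTV-Wnt1 tumors. MMTV-Wnt1 replicate 3 thus kept both simple keratins but had Epcam near the floor, and it also had the highest mean level of fibroblast and matrix markers (13.03), macrophage markers (11.31) and neutrophil markers (10.04) of the 24 arrays. MMTV-c-Myc replicate 2 stood apart by a milk gene level (11.57) above that of every other tumor. Salivary gland markers stood high in 6 arrays, with mean levels from 9.59 to 12.23, namely MMTV-H-Ras replicates 1, 2, 3 and 5, MMTV-PymT replicate 2 and MMTV-Wnt1 replicate 2, while the other 18 tumors lay at or below 5.67. Many counts that moved by more than 1.5 times without 1 of these arrays are given beside the results, but not all such moves are.

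The upstream sequences of 4 called members of the milk and interferon lists are shown first. The 4 were chosen by their measured side difference, among the 4 largest of their list, and by holding a match to a sequence given next. Csn1s2a (6.295) and Usp18 (3.544) had the largest side differences of these lists and are not printed. STAT factors bind the sequence TTCNNNGAA, and the factors that act downstream of interferon bind pairs of GAAA with any 2 bases between them. The promoters of 4 genes that hold such a match are printed 5′ to 3′ on the strand of the gene, as the 160 bases before the annotated start, from RefSeq on GRCm38.p6, with the matches in capitals. Csn1s1, the alpha casein gene, lies on the plus strand at chr5:87666048-87666207, and Csn2, the beta casein gene, on the minus strand at chr5:87699426-87699585. Ifit1, an interferon-induced RNA-binding protein, lies on the plus strand at chr19:34640729-34640888, and Oas1a, an oligoadenylate synthetase, on the minus strand at chr5:120907526-120907685.
Csn1s1: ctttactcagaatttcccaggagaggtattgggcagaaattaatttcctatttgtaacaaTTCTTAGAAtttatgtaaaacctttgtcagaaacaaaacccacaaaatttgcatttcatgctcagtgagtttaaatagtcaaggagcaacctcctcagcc
Csn2: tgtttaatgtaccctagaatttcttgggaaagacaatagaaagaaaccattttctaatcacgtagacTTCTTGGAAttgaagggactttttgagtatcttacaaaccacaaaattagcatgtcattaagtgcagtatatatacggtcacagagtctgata
Ifit1: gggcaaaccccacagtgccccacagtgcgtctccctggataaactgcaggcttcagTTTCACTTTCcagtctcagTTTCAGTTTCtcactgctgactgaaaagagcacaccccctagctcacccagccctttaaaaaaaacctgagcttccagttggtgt
Oas1a: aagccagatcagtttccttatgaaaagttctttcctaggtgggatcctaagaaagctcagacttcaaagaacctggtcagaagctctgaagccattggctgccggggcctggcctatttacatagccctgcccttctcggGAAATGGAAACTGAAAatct
The match began 100 bases before the start in Csn1s1 and 93 bases before it in Csn2. Ifit1 had matches in the reverse orientation (pairs of TTTC) that began 104 and 85 bases before the start, and the Oas1a matches, 20 and 14 bases before it, overlapped. Both strands of the 250 bases before the start were searched in 32851 annotated promoters. TTCNNNGAA was found in 7.02% of all promoters, in 3 of the 14 milk genes with an entry (21.4%) and in 5 of the 19 interferon genes with an entry (26.3%). The GAAA pair was found in 2.98% of all promoters, in 0 of the 14 milk genes and in 11 of the 19 interferon genes (57.9%). Among members called higher in the kinase and Ras tumors, TTCNNNGAA was in 2 of 7 milk and 2 of 7 interferon promoters. The GAAA pair was in 0 of those 7 milk and 4 of those 7 interferon promoters. A match is a description of these letters and no measurement of binding.

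Of 9329 genes measured, 940 (10.1%) were at least 2-fold higher in the kinase and Ras tumors with an adjusted p below 0.05 in limma, and 647 (6.94%) were higher in the Myc and Wnt1 tumors. These are called higher below, as a description, and the 2 shares are the background for each list count. In 764 of the first (8.19%) and 520 of the second (5.57%), all 3 model means of one side lay beyond both model means of the other, which is called separated. The median difference over all genes was 0.01. Single tumors overlapped far more than model means did. In 23 genes (0.247%) every kinase and Ras tumor lay above every Myc and Wnt1 tumor, and in 7 genes (0.0750%) every one lay below. When the model was treated as a random block, so that the spread between models entered the error, 170 and 86 genes were called.

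The 5 models were also compared as wholes, by the mean correlation between arrays across all 9329 genes, which describes likeness and is not a test, since genes are not independent replicates. MMTV-Her2/neu and MMTV-PymT tumors were the most alike pair of models (0.927), and MMTV-H-Ras tumors correlated at 0.880 and 0.877 with them. MMTV-c-Myc tumors correlated at 0.839 to 0.874 with the 3 kinase and Ras models and at 0.844 with MMTV-Wnt1, so by this measure the c-Myc tumors were no more like the Wnt1 tumors than like the other side. The correlation of MMTV-Wnt1 with the kinase and Ras models was 0.805 to 0.839. Replicates of 1 model correlated at 0.979 in MMTV-Her2/neu, 0.951 in MMTV-PymT, 0.904 in MMTV-H-Ras, 0.887 among c-Myc tumors and 0.846 among Wnt1 tumors. Tumors of the Myc and Wnt1 models were thus less alike than those of the other 3 models, and many means on the Myc and Wnt1 side rest on tumors that differ widely.

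The transgenes themselves were checked where a probe set was measured. Myc was at 13.1, 13.57, 13.41 and 13.86 in the 4 MMTV-c-Myc tumors, above all other tumors. It was at 10.5, 10.38, 10.23 and 10.74 in MMTV-Wnt1, at 8.71, 9.21, 9.46, 9.57 and 8.01 in MMTV-H-Ras and at 8.88, 9.16, 9.18, 9.24 and 8.55 in MMTV-Her2/neu. In the 6 MMTV-PymT tumors it was 8.45 at the lowest, 9.27 at the median and 10.46 at the highest. The Wnt1 tumors thus lay between the c-Myc tumors and nearly all of the others, with 1 MMTV-PymT tumor inside their range, and c-Myc exceeded Wnt1 tumors by 3.02 ± 0.37 (SE, limma adjusted p = 3.38e-05). The normal glands had Myc at 9.09 ± 0.48 (SD, n = 5). Erbb2, the mouse gene for the Her2 receptor, did not mark the MMTV-Her2/neu arrays. Its level was 7.72 ± 0.26 (SD, n = 5) there, 7.78 ± 0.82 (n = 5) in MMTV-H-Ras and 7.18 ± 0.81 (n = 6) in MMTV-PymT, with single tumors of the other models both above and below. The probe set may or may not read the transgene, which the sources used here do not say. The H-Ras, Wnt1 and PymT transgenes were not analysed here.

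Genes of the Myc programme were in part higher on the Myc and Wnt1 side. Of 23 measured members of a list of Myc and ribosome biogenesis targets, 6 were called higher in the Myc and Wnt1 tumors and 0 in the kinase and Ras tumors, with a median difference of -0.77, and 3 were called with a random block for model. Cad, the enzyme that starts pyrimidine synthesis, had lowest, median and highest levels of 8.37, 9.3 and 11.16 in the Myc and Wnt1 tumors against 5.79, 7.61 and 8.68 in the others, a 3.91-fold difference (-1.97 ± 0.3, SE). Odc1, the first enzyme of polyamine synthesis, was 3.66-fold higher (-1.87 ± 0.3). The nucleolar genes Nop56, Nolc1, Fbl and Bop1 were 2.65-, 2.51-, 2.12- and 2.12-fold higher. Within the side, 8 of the 23 were higher in c-Myc than in Wnt1 tumors, where the share over all genes was 3.56%. Cad exceeded by 1.72 ± 0.49 (SE, limma adjusted p = 0.0401) and Nop56 by 1.47 ± 0.35 (adjusted p = 0.0152). With the MMTV-Wnt1 model left out, 19 of the 23 were called against the kinase and Ras tumors (median -1.24), and with MMTV-c-Myc left out, 2 were. Of 7 members of the Myc network, Myc itself and Mnt, a repressor that shares the partner of Myc, were called higher, Mnt by 2.87-fold (-1.52 ± 0.27, SE), and Mlx, which dimerizes with related factors, was called in the other direction until any of several single arrays was left out.

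Wnt target genes showed the reverse split within the same side. Of 14 measured members of a list of Wnt and beta-catenin targets, 6 were called higher in the Myc and Wnt1 tumors and 1 in the kinase and Ras tumors, with a median of -1.33, of which 2 and 0 were called with a random block for model. Axin2, a negative regulator of beta-catenin that Wnt signals induce, was at 9.56, 7.59, 6.4 and 5.82 in the 4 MMTV-Wnt1 tumors. It was at 2.24, 2.18, 4.99 and 2.22 in the MMTV-c-Myc tumors and at 1.99 to 2.62 in the 16 kinase and Ras tumors. All Wnt1 tumors were therefore above all others, while c-Myc tumors apart from replicate 3 sat at the floor with the other side. The c-Myc minus Wnt1 difference was -4.44 ± 0.59 (SE, limma adjusted p = 7.5e-05). Apcdd1, a membrane inhibitor of Wnt signals, was 11.9-fold higher on the Myc and Wnt1 side, at 11.9, 9.3, 9.28 and 8.35 in Wnt1 and 6.94, 5.37, 9.62 and 5.21 in c-Myc tumors against 3.63 to 6.85 in the others. Nkd2 (11.2-fold), Ccn4 (5.63-fold), the secreted Dkk3 (4.23-fold) and Nkd1 (2.04-fold) completed the 6.

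In 5 of the 14 Wnt targets the Wnt1 tumors exceeded the c-Myc tumors with an adjusted p below 0.05, where the share over all genes was 2.67%. Wif1, a secreted Wnt inhibitor, was at 11.25, 12.96, 2.85 and 12.64 in Wnt1 and at 2.82 to 4.05 in c-Myc tumors (difference -6.57 ± 1.59, SE, limma adjusted p = 0.0156), so that 3 of 4 Wnt1 tumors were high and replicate 3 was at the floor. The gene was also present in MMTV-PymT at 6.5 ± 2.34 (SD, n = 6), and its side difference of -1.92 ± 0.98 was not called. With MMTV-Wnt1 left out 2 of the 14 targets were called higher in the remaining c-Myc tumors, and with MMTV-c-Myc left out 8 were called higher in the Wnt1 tumors. Rnf43, a ubiquitin ligase that removes Wnt receptors and is itself a Wnt target, ran the other way, at 6.37, 7.76 and 8.75 in the kinase and Ras tumors against 3.1, 7.01 and 8.0 (lowest, median and highest), and it was the 1 member called higher there. That call was lost without MMTV-Wnt1 replicate 3, MMTV-c-Myc replicate 3 or 4, or MMTV-H-Ras replicate 4.

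**Figure D1:**
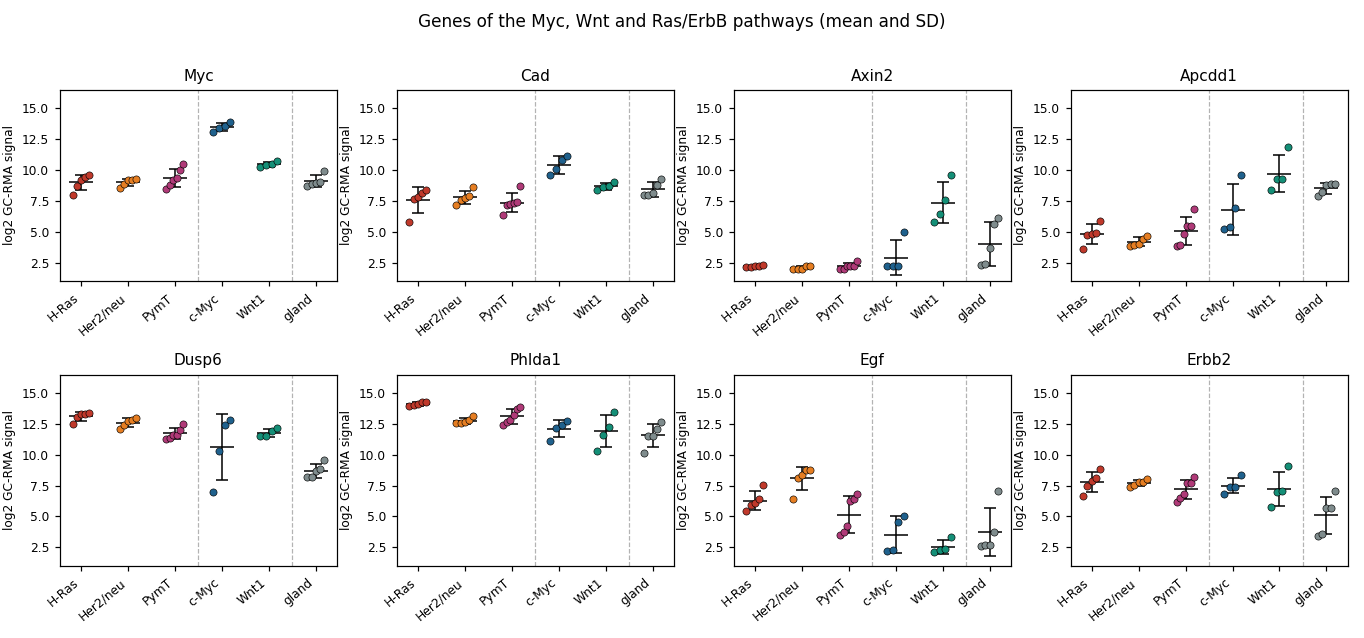
Log2 level of Myc, Cad, Axin2, Apcdd1, Dusp6, Phlda1, Egf and Erbb2 (vertical axis of each panel) in every array of the 5 tumor models and the normal gland (horizontal axis). Points are arrays, black bars are the mean ± SD of a model and dashed lines separate the kinase and Ras models, the Myc and Wnt1 models and the gland. All 4 c-Myc tumors stand above every other array for Myc, and all 4 Wnt1 tumors stand above all other tumors for Axin2.

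Genes downstream of Ras and of the receptor kinases were called in part. Of 15 measured ERK feedback and ETS genes, which ERK activity induces, 4 were called higher in the kinase and Ras tumors and 0 in the others, and the median difference was 0.01, the same as over all genes, of which 10.1% were called in that direction. With the model as a random block in limma 0 of the 15 were called, and 2 had an unadjusted p below 0.05. Dusp6, the phosphatase that inactivates ERK, was at 12.51, 13.34, 13.29, 13.35 and 13.06 in MMTV-H-Ras, at 13.0, 12.76, 12.78, 12.38 and 12.1 in MMTV-Her2/neu and, in MMTV-PymT, at 11.3 at the lowest, 11.6 at the median and 12.53 at the highest. It was at 11.9, 12.13, 11.48 and 11.51 in MMTV-Wnt1 and at 12.43, 6.96, 12.81 and 10.27 in MMTV-c-Myc. PymT and Wnt1 tumors therefore overlapped, and the low c-Myc tumors were replicates 2 and 4. Phlda1, another gene that ERK induces, was highest in MMTV-H-Ras (13.99 to 14.26) and 2.51-fold higher over the side (1.33 ± 0.28, SE). Etv5, an ETS factor, and Ier3, an immediate early gene, were 3.31- and 2.83-fold higher. Fosl1, another member, had a difference of -1.742 with model means separated in the other direction, and was not called. Without MMTV-c-Myc replicate 2 or MMTV-Wnt1 replicate 3, the count of 4 fell to 2. In the Myc and Wnt1 tumors, 1 member was called higher without MMTV-c-Myc replicate 2 or 4, or MMTV-Wnt1 replicate 1, 2 or 4.

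Against the normal gland, 12, 10, 8, 10 and 8 of the 15 ERK genes were higher in the H-Ras, Her2/neu, PymT, c-Myc and Wnt1 tumors, so the list was raised in the models of both sides. Of all genes, 12.2%, 19.2%, 16.4%, 15.8% and 13.8% were higher, in the same order. Within the kinase and Ras side, 4 of the 15 were higher in MMTV-H-Ras than in the mean of the other models, where the share over all genes was 6.36%. Etv4 was at 5.61, 8.91, 8.91, 7.79 and 7.38 in MMTV-H-Ras against 5.61 to 6.06 in MMTV-Her2/neu and 4.01 to 5.18 in MMTV-PymT (difference 2.54 ± 0.47, SE, limma adjusted p = 0.0012). Egr1, an early response transcription factor, exceeded by 1.74 ± 0.39 (adjusted p = 0.0045). Their levels in c-Myc tumors, 7.41 ± 1.44 and 11.52 ± 1.57 (SD, n = 4), overlapped with those in H-Ras tumors, and neither gene was called between the sides.

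Egf, Tgfa and Btc, ligands of the epidermal growth factor receptor, were higher in the kinase and Ras tumors. Of 8 measured receptors, ligands and adaptors, 3 were called higher there and 0 in the other tumors (median 0.94), and 1 of the 3, Egf, was called with a random block for model. The ligands Hbegf and Ereg, counted with the ERK genes, had differences of -1.11 and -0.34 and were not called. Egf was at 6.45, 8.11, 8.39, 8.74 and 8.74 in MMTV-Her2/neu, at 6.1, 5.93, 7.52, 6.37 and 5.45 in MMTV-H-Ras and, in MMTV-PymT, at 3.47 at the lowest, 5.25 at the median and 6.78 at the highest. It was at 2.26, 5.03, 2.23 and 4.56 in c-Myc and 2.26, 3.31, 2.37 and 2.14 in Wnt1 tumors, an 11.2-fold difference (3.48 ± 0.47, SE). The c-Myc replicates 2 and 4 reached the range of the PymT tumors, and the Wnt1 tumors were below all kinase and Ras tumors. Tgfa and Btc were 3.41- and 2.07-fold higher, with overlapping tumors in both. The count of 3 fell to 1 without MMTV-c-Myc replicate 4 or MMTV-Wnt1 replicate 4. Among 8 measured components of the Ras cascade, Nf1, the gene for the Ras inactivator neurofibromin, was called higher in the kinase and Ras tumors, at 5.63, 6.85 and 8.0 against 4.63, 5.41 and 7.14 (lowest, median and highest), and it was not called without MMTV-c-Myc replicate 2.

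Targets of STAT5 and cytokine feedback were partly higher in the kinase and Ras tumors, with 2 of 7 called, against 10.1% of all genes. By limma with a random block for model 0 of the 7 were called (2 at an unadjusted p below 0.05). Socs2, a feedback inhibitor of cytokine receptors, was at 14.11, 14.39, 14.61, 14.35 and 14.21 in MMTV-Her2/neu and 12.67, 13.15, 13.19, 13.23 and 12.8 in MMTV-H-Ras, whereas in MMTV-PymT it was 10.75 at the lowest, 11.23 at the median and 11.92 at the highest. The c-Myc tumors had 11.78, 9.11, 11.6 and 10.66 and the Wnt1 tumors 9.42, 12.7, 9.85 and 9.17. H-Ras and Her2/neu tumors were thus high and PymT tumors overlapped with the other side. Cish, a STAT5 target that blocks cytokine receptors, was 2.75-fold higher (1.46 ± 0.25, SE), and within the other side it was lower in c-Myc than in Wnt1 tumors (difference -1.44 ± 0.4, SE, limma adjusted p = 0.0347).

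Milk and secretory genes showed the widest difference of any list. Of 20 measured members, 12 were called higher in the kinase and Ras tumors and 0 in the others, 7 of them with separated model means, and the median difference was 3.15. Csn2, the major mouse milk casein, was at 14.42, 14.35, 13.87, 14.33 and 13.13 in MMTV-Her2/neu, at 12.69, 8.82, 8.8, 8.09 and 12.07 in MMTV-H-Ras and, in MMTV-PymT, at 7.93 at the lowest, 12.34 at the median and 14.27 at the highest. It was at 3.04, 2.5, 3.02 and 7.82 in the Wnt1 tumors and at 2.93, 15.12, 2.23 and 12.9 in the c-Myc tumors. Below all kinase and Ras tumors lay 6 of the 8 Myc and Wnt1 tumors, and c-Myc replicates 2 and 4 lay within their range or above it. The side difference was 5.71 ± 1.31 (SE), or 52.4-fold, from values partly at the floor. The sister caseins Csn1s2a and Csn1s1 differed 78.5- and 33.7-fold with the same c-Myc tumors high.

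Lalba, the alpha-lactalbumin needed for lactose synthesis, split the sides internally. It was at 11.34, 13.05, 13.69, 13.21 and 12.62 in MMTV-Her2/neu and, in MMTV-PymT, at 10.86 at the lowest, 11.71 at the median and 11.95 at the highest. In MMTV-H-Ras it was at 2.13, 2.11, 2.11, 13.75 and 2.13, so that replicate 4 was high and the rest at the floor. It was at 2.06 to 2.11 in all Wnt1 tumors and at 2.1, 12.83, 2.12 and 7.18 in c-Myc tumors. The H-Ras tumors with Lalba at the floor were those with high salivary gland markers, and replicate 4 had a salivary level of 5.67. MMTV-PymT replicate 2, which also had high salivary markers, had Lalba at 10.86 or above. Btn1a1, a coat protein of milk fat globules, was at 11.89 to 12.65 in MMTV-Her2/neu and 2.31 to 3.03 in MMTV-H-Ras, and Muc15 had the same single high H-Ras tumor (13.05). Folr1, a folate receptor, was 32.9-fold higher, Xdh, an enzyme of the milk fat globule, 11-fold, and Slc34a2, a phosphate transporter, 6.68-fold. In MMTV-H-Ras, 10 of the 20 members were lower than in the mean of the other kinase models, where 13.5% of all genes were. By the mean of the milk list, H-Ras replicate 4 (7.38) lay between replicate 1 (8.04) and replicates 2, 3 and 5 (6.65, 6.51 and 6.71). The part of salivary tissue in the milk levels of MMTV-H-Ras was not tested.

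Csn3, the kappa casein that stabilizes casein micelles, was high in most tumors of both sides. It was at 13.8 to 15.58 in the 16 kinase and Ras tumors, at 13.97, 14.92, 13.8 and 14.08 in the c-Myc tumors and at 7.32, 12.27, 7.06 and 12.86 in the Wnt1 tumors. The c-Myc tumors thus sat at the lower edge of or inside the kinase and Ras range, while Wnt1 replicates 1 and 3 were far below it, and c-Myc exceeded Wnt1 by 4.32 ± 0.86 (SE, limma adjusted p = 0.0047). Thrsp, a regulator of milk fat synthesis, was at 2.31, 2.56, 1.91 and 8.35 in Wnt1 and 6.77, 12.84, 8.29 and 11.48 in c-Myc tumors, a difference of 6.06 ± 1.38 (adjusted p = 0.0103).

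Milk genes were lower in every model than in the late-pregnant gland, where Csn2 was at 15.38 ± 0.12 and Lalba at 13.73 ± 0.76 (SD, n = 5). Of the 20 genes, 18 were lower than the gland in MMTV-H-Ras, 8 in MMTV-Her2/neu, 12 in MMTV-PymT, 18 in c-Myc tumors and 19 in Wnt1 tumors, by limma at an adjusted p below 0.05 and at least 2-fold. As many were thus lower in MMTV-H-Ras as in MMTV-c-Myc, and the fewest in MMTV-Her2/neu. Of all genes, 13.5%, 12.0%, 11.3%, 14.1% and 12.8% were lower than the gland in the 5 models, in the same order. With MMTV-Wnt1 left out, 4 of the 20 were called between the sides, and with model as a random block in limma 0 were, although 8 had an unadjusted p below 0.05.

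**Figure D2:**
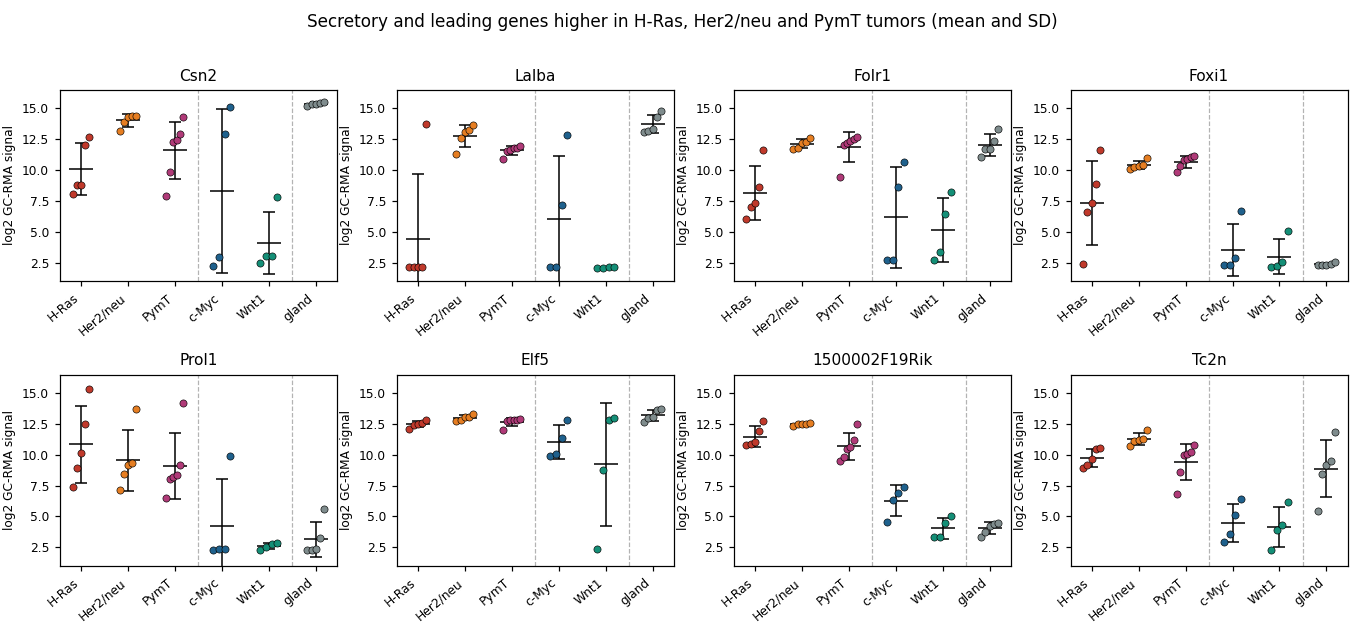
Log2 level of Csn2, Lalba, Folr1, Foxi1, Prol1, Elf5, 1500002F19Rik and Tc2n (vertical axes) in every array, by tumor model and normal gland (horizontal axis). Black bars are the mean ± SD of a model. Csn2, Lalba and Folr1 are milk genes and Elf5 a luminal gene. Foxi1, Prol1, 1500002F19Rik and Tc2n were among the largest side differences. MMTV-Her2/neu and MMTV-PymT tumors are high for Lalba, 4 of 5 MMTV-H-Ras tumors are at the floor, and c-Myc replicate 2 reaches the level of the Her2/neu and PymT tumors.

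Luminal epithelial genes were higher in the kinase and Ras tumors for 6 of 18 members, and 1 was called higher in the Myc and Wnt1 tumors (median 0.97). By limma with a random block for model, 0 of the 18 were called, and 2 had an unadjusted p below 0.05. Elf5, the transcription factor of alveolar cells, was at 11.99 to 13.28 in the 16 kinase and Ras tumors, at 10.08, 12.84, 9.92 and 11.36 in the c-Myc and at 8.79, 12.98, 2.32 and 12.84 in the Wnt1 tumors. Thus 3 of the 8 Myc and Wnt1 tumors lay within the range of the other side, and Wnt1 replicate 3 was at the floor. Kit, a receptor of luminal progenitors, Ehf, an epithelial ETS factor, and the tight junction gene Cldn3 were 4.53-, 4.66- and 2.82-fold higher in the kinase and Ras tumors, and all 3 had their lowest value, from 2.94 to 6.99, in Wnt1 replicate 3. Prom1 (6.1-fold) and Spdef (7.26-fold), a factor of secretory cells that was near the floor in 6 of the 8 Myc and Wnt1 tumors, were also called. Without MMTV-c-Myc replicate 3 the 6 became 3. Of 13 epithelial junction genes, 2 (Ocln and Prss8) were called higher in the kinase and Ras tumors, where 10.1% of all genes were. The 2 became 0 without c-Myc replicate 3 or Wnt1 replicate 3, and 4 without Wnt1 replicate 2. With a random block for model, 0 of the 13 were called.

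Keratin 19 ran against the other called luminal genes. Foxa1 (-1.803), Aldh1a3 (-0.407), Krt7 (-0.403) and Cldn4 (-0.33) had side differences of the same sign as keratin 19 but were not called. Krt19 was at 2.13, 2.67, 2.65, 4.16 and 2.51 in MMTV-H-Ras and at 2.52, 2.13, 3.19, 2.74 and 2.52 in MMTV-Her2/neu, near the floor in both models. In MMTV-PymT it was 9.71 at the lowest, 11.06 at the median and 12.11 at the highest, and the c-Myc tumors ranged from 8.91 to 12.23, with Wnt1 tumors at 10.74, 3.21, 5.81 and 11.94. The normal gland had 10.9 ± 0.45 (SD, n = 5). The side difference of -3.64 ± 0.75 (SE) therefore rested on H-Ras and Her2/neu tumors, and the model means were not separated, since PymT tumors were as high as c-Myc tumors.

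Among the 10 genes with the largest side difference in favour of the kinase and Ras tumors were further secretory and epithelial genes. Scgb2b27, a secretoglobin, was at 10.61, 12.96 and 15.15 in the kinase and Ras tumors (lowest, median and highest) and at 2.27, 13.87, 2.23 and 8.57 in c-Myc and 2.66, 9.0, 2.17 and 2.62 in Wnt1 tumors, 190-fold over the side. Car6, a secreted carbonic anhydrase of saliva and milk, was 52.9-fold higher, and Prol1, a secreted proline-rich protein, 86.2-fold. All 3 were high in Wnt1 replicate 2 or c-Myc replicate 2. Tspan8, a tetraspanin, was 89.9-fold higher, at 12.51 to 12.74 in MMTV-Her2/neu. Foxi1, a transcription factor of ion-transporting epithelial cells, was at 10.42 ± 0.34 (SD, n = 5) in MMTV-Her2/neu and, in MMTV-PymT, at 9.87 at the lowest, 10.84 at the median and 11.1 at the highest, but at 8.88, 7.29, 6.62, 11.63 and 2.34 in MMTV-H-Ras. It was at the floor in the glands (2.31 to 2.52) and in 5 of the 8 Myc and Wnt1 tumors.

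The genes with the widest gap between the arrays of the sides were not milk genes. 1500002F19Rik, a gene without an assigned function in the table used, was at 9.47 to 12.72 in the kinase and Ras tumors and at 3.34 to 7.38 in the others, 83.7-fold apart (6.39 ± 0.38, SE). Its level in the glands was 3.33 to 4.46, so the kinase and Ras tumors were above the gland as well. Tc2n, a C2 domain protein, was at 6.8 to 12.02 against 2.25 to 6.37, with glands at 5.43 to 11.86. Fzd3, a Wnt receptor of the Frizzled family, was at 5.23 to 6.79 against 3.0 to 4.42, again with the glands on the Myc and Wnt1 side (3.15 to 3.2). Tpd52l1, Mansc1, Enpp3, Golph3 and Secisbp2l completed the 8, with side differences of 4.29, 2.59, 2.86, 1.72 and 2.51. For Golph3, a Golgi protein, and Secisbp2l, the glands lay with the kinase and Ras tumors, at 12.13 to 12.72 and 12.0 to 13.28.

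Tesc, which encodes a calcium-binding protein, was among the 10 largest differences and showed a gradient over the models. It was at 12.34, 12.42, 13.03, 12.37 and 13.05 in MMTV-H-Ras, at 13.03, 11.73, 11.56, 11.82 and 11.18 in MMTV-Her2/neu and, in MMTV-PymT, at 7.0 at the lowest, 9.5 at the median and 11.46 at the highest. It was at 9.35, 5.31, 6.17 and 9.1 in c-Myc and at 3.83, 4.75, 2.36 and 3.32 in Wnt1 tumors, a difference of 3.91 ± 0.85 (SE, limma adjusted p = 0.0075). The glands were at 2.39 to 4.34, with the Wnt1 tumors.

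In the other direction the 7 genes with no overlap were lower in every kinase and Ras tumor. Bok, a member of the Bcl-2 family of cell death regulators, was at 3.55 to 5.15 in the kinase and Ras tumors and at 7.94, 5.91, 10.43 and 9.08 in c-Myc and 7.17, 7.22, 6.43 and 7.34 in Wnt1 tumors, 10.7-fold apart, with glands at 3.87 to 5.15. Impact, an imprinted regulator of translation, differed 5.23-fold, Marveld1 3.65-fold and the histone chaperone Nap1l1 2.88-fold. Edc4, Cfdp1 and Anapc5, a subunit of the anaphase-promoting complex, differed by -0.84, -0.69 and -0.55, under 2-fold in each. The gaps in this direction were narrow, since the lowest Bok value of the Myc and Wnt1 tumors was 5.91 and the highest of the others 5.15.

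Igfbp2, which binds insulin-like growth factors, had the largest difference in favour of the Myc and Wnt1 tumors. It was at 9.16, 7.74, 12.54 and 12.17 in c-Myc and 9.2, 13.01, 9.11 and 12.29 in Wnt1 tumors. It was at 3.06, 3.01, 5.05, 3.06 and 4.37 in MMTV-H-Ras, at 3.11, 3.01, 3.4, 3.21 and 2.89 in MMTV-Her2/neu and, in MMTV-PymT, at 6.13 at the lowest, 7.13 at the median and 7.85 at the highest. H-Ras and Her2/neu tumors were therefore near the floor and PymT tumors intermediate, with 1 PymT tumor above the lowest c-Myc tumor, and the glands at 7.51 to 9.52. The difference was -6.01 ± 0.56 (SE), or 64.5-fold. Htra1, a secreted serine protease, Dpysl3, a cytoskeletal regulator, Gpc1, a cell surface proteoglycan, and Col18a1, a basement membrane collagen, were 35.8-, 23-, 19- and 29.2-fold higher. Moxd1 was at 11.35 to 13.3 in Wnt1 tumors and at 11.47, 3.2, 9.18 and 3.2 in c-Myc tumors, and Antxr1, a collagen-binding receptor, was also higher in Wnt1 than in c-Myc tumors (difference -4.05 ± 0.86, SE, limma adjusted p = 0.0065). Il17b, a cytokine, was at 10.5, 8.62, 11.4 and 9.12 in c-Myc tumors and 5.33, 12.31, 2.64 and 11.6 in Wnt1 tumors, and the angiogenesis inhibitor Serpinf1 was 21.2-fold higher.

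Basal and myoepithelial genes were higher in the Myc and Wnt1 tumors for 10 of 15 members and lower for 0 (median -2.49), and 3 of the 15 were called with a random block for model. Krt14 was at 13.92, 11.47, 9.7 and 11.31 in Wnt1 tumors and at 6.73, 10.89, 7.8 and 6.9 in c-Myc tumors. It was at 3.04 to 3.06 in the 5 MMTV-H-Ras and 2.97 to 3.08 in the 5 MMTV-Her2/neu tumors, a floor level in all 10, whereas in the 6 MMTV-PymT tumors it was 8.21 at the lowest, 8.62 at the median and 10.72 at the highest. The means of PymT and c-Myc tumors thus crossed, and Krt14 was called without being separated (-4.84 ± 0.47, SE). Krt5, the partner of keratin 14, was at 13.28, 11.71, 2.99 and 11.98 in Wnt1 tumors and 2.94, 9.09, 4.51 and 3.53 in c-Myc tumors against 4.6 to 8.42 in PymT tumors. Trp63, the basal cell transcription factor, followed the same order, with Wnt1 tumors at 10.11, 11.69, 3.47 and 10.84 and c-Myc tumors at 3.2, 6.01, 8.17 and 3.27.

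Lama3, a laminin chain of epithelial basement membrane, was at 1.96 to 2.28, the floor, in all 16 kinase and Ras tumors. It was at 9.55, 2.06, 6.16 and 2.23 in c-Myc and 4.24, 10.05, 2.17 and 8.89 in Wnt1 tumors, so 5 of the 8 were above the floor. The contractile genes Tagln, Acta2 and Myh11, shared by myoepithelium and smooth muscle, were 21.2-, 6.39- and 4.74-fold higher. Myh11 rested on Wnt1 replicates 2 and 4 (11.52 and 8.98) and c-Myc replicate 2 (5.8), with every other tumor at or below 3.36. Cav1, a membrane scaffold, and Snai2, a basal transcription factor, were 6.05- and 5.62-fold higher, and both were higher in Wnt1 than in c-Myc tumors (limma adjusted p = 0.0316 and 0.0211). In 4 of the 15 basal genes the Wnt1 tumors exceeded the c-Myc tumors. With MMTV-Wnt1 left out 4 of 15 were called (median -0.70), without Wnt1 replicate 2 alone 6 were, and with MMTV-c-Myc left out 12 were. Against the gland, 10, 10, 8, 9 and 0 basal genes were lower in H-Ras, Her2/neu, PymT, c-Myc and Wnt1 tumors. The shares of all genes that were lower were 13.5%, 12.0%, 11.3%, 14.1% and 12.8%, in the same order.

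**Figure D3:**
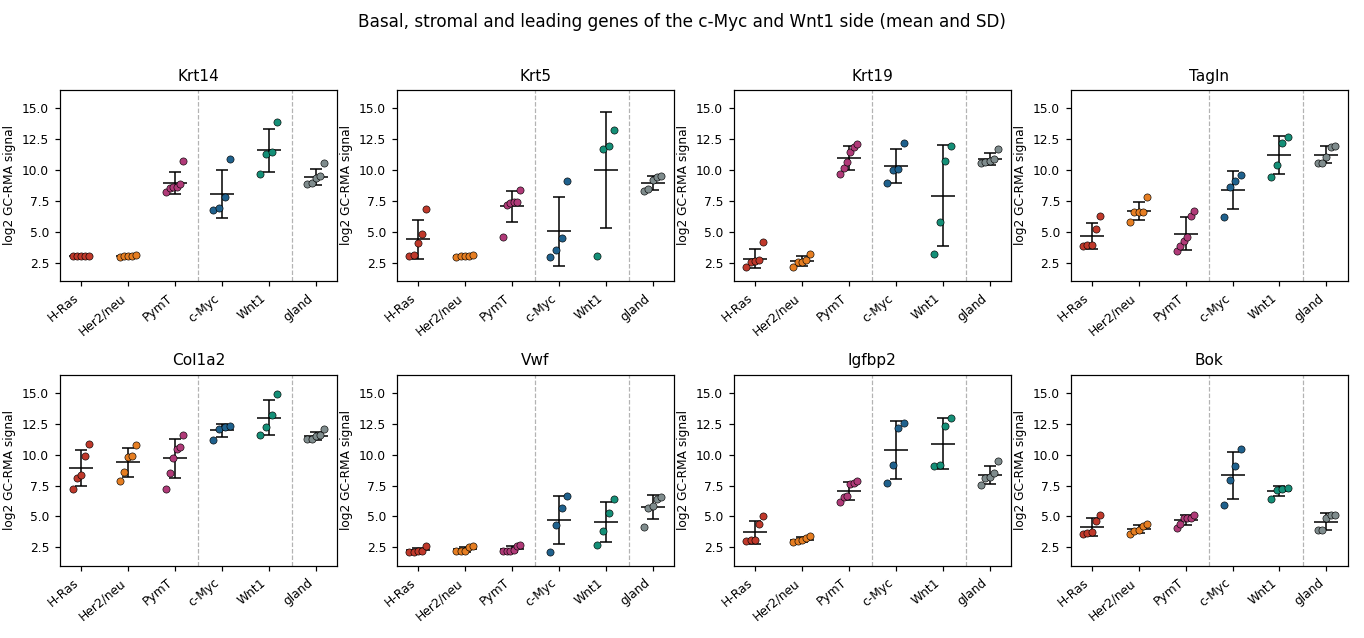
Log2 level of the keratins Krt14, Krt5 and Krt19, the contractile gene Tagln, the collagen Col1a2, the endothelial gene Vwf, and Igfbp2 and Bok (vertical axis of each panel) in every array of the 5 tumor models and the normal gland (horizontal axis), with black bars for the mean ± SD of a model. Krt14 and Krt19 are at the floor in nearly all MMTV-H-Ras and MMTV-Her2/neu tumors and present in MMTV-PymT tumors, and Vwf is at or near the floor in all 16 kinase and Ras tumors.

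Markers of stroma moved in the same direction. In these bulk tumors, fewer cells of a type and less RNA per cell cannot be told apart. Of 19 fibroblast and matrix genes, 15 were called higher in the Myc and Wnt1 tumors, all with separated means, and 0 in the kinase and Ras tumors (median -2.66). Treating the model as a random block left 2 of the 19 called. Their mean level per tumor had lowest, median and highest values of 8.05, 9.88 and 13.03 in the Myc and Wnt1 tumors and 5.76, 8.04 and 9.06 in the others. Col1a2, a chain of type I collagen, was at 12.27, 12.07, 12.36 and 11.22 in c-Myc and 12.22, 11.64, 14.92 and 13.26 in Wnt1 tumors against 7.21, 9.77 and 11.59 (lowest, median and highest) in the kinase and Ras tumors, 8.98-fold over the side (-3.17 ± 0.55, SE). Of the 8 Myc and Wnt1 tumors, c-Myc replicate 4 lay inside the range of the other side. Col1a1, Col6a2, and the proteoglycans Bgn and Dcn were 9.94-, 9.89-, 8.85- and 9.1-fold higher. Sparc, a matrix glycoprotein, differed 4.03-fold and was higher in Wnt1 than in c-Myc tumors (limma adjusted p = 0.034). Against the gland 15, 7, 10, 2 and 0 of the 19 were lower in H-Ras, Her2/neu, PymT, c-Myc and Wnt1 tumors. For all genes these shares were 13.5%, 12.0%, 11.3%, 14.1% and 12.8%, in the same order.

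Endothelial markers were called higher in the Myc and Wnt1 tumors in 9 of 14 cases and in 0 cases in the others (median -1.29). With the model as a random block, limma called 0 of them, although 9 had an unadjusted p below 0.05. Vwf, the von Willebrand factor of vessel walls, was at 2.11 to 2.65 in all 16 kinase and Ras tumors. It was at 4.32, 6.65, 5.64 and 2.15 in c-Myc and 3.79, 2.66, 6.39 and 5.31 in Wnt1 tumors, so that c-Myc replicate 4 alone fell within the other side and Wnt1 replicate 2 was close to it. Cldn5, the claudin of endothelial junctions, was 3.2-fold higher, at 4.1, 7.19, 7.93 and 6.97 in Wnt1 tumors, and higher there than in c-Myc tumors (-1.88 ± 0.54 for c-Myc minus Wnt1, SE, limma adjusted p = 0.0401). Esam and Egfl7 were 3- and 2.36-fold higher. The part of vessel and stromal content in the basal, matrix and mesenchymal results was not tested.

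Macrophage markers were higher in the Myc and Wnt1 tumors for 6 of 18 members and in the kinase and Ras tumors for 1 (median -0.81). Limma called 0 of the 18 with a random block for model, where 3 had an unadjusted p below 0.05. C1qa, a complement subunit that macrophages make, was at 11.07, 11.58 and 14.15 in the Myc and Wnt1 tumors and 8.61, 10.62 and 12.34 in the others (lowest, median and highest), 2.49-fold apart. Msr1, a scavenger receptor, Mrc1, a mannose receptor, and Lyz2, a lysozyme, were 4.95-, 3.49- and 2.44-fold higher. Without Wnt1 replicate 3, which had Msr1 at 11.43 against 4.77, 5.29 and 5.71 in the other Wnt1 tumors, the 6 fell to 1, without c-Myc replicate 3 to 2 and without Wnt1 replicate 4 to 3. Arg1, an arginine-degrading enzyme of some macrophages and also of epithelial cells, was the opposite, 6-fold higher in the kinase and Ras tumors. It was at 12.77, 13.69, 13.09, 13.81 and 12.82 in MMTV-H-Ras, at 9.45 to 12.28 in MMTV-Her2/neu and at 10.47 to 13.36 in MMTV-PymT. The c-Myc tumors had 10.11, 8.1, 7.48 and 8.25, the Wnt1 tumors 9.27 to 12.35 and the glands 2.06 to 3.1. Tumors of both Myc and Wnt1 models thus overlapped with MMTV-Her2/neu tumors.

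Mesenchymal genes, often used to follow the epithelial-mesenchymal transition and also expressed by fibroblasts, were called higher in the Myc and Wnt1 tumors in 6 of 10 cases and in 0 in the others (median -1.80). When the model was a random block, limma called 0, and 5 had an unadjusted p below 0.05. Twist1 was at 2.19 to 2.53, the floor, in all kinase and Ras tumors and at 8.1, 4.14, 9.11 and 2.22 in c-Myc and 5.79, 2.32, 5.89 and 2.48 in Wnt1 tumors. S100a4, a calcium-binding protein of motile cells, was at 6.13, 9.01, 13.69 and 6.14 in c-Myc and 9.47, 8.02, 14.55 and 7.59 in Wnt1 tumors against 3.99, 6.14 and 8.46 (lowest, median and highest), so c-Myc replicate 3 and Wnt1 replicate 3 set much of its 10.3-fold difference. Prrx1, Zeb2 and Vim were 4.75-, 3.75- and 2.17-fold higher. Other probe sets of Prrx1 differed by -1.62 (called) and by -0.44 and -0.43 (not called). The matrix level of the same tumors was highest in Wnt1 replicate 3 (13.03), c-Myc replicate 3 (11.34) and Wnt1 replicate 4 (11.15). The mean level of the mesenchymal list was highest in Wnt1 replicate 3 (9.26), c-Myc replicate 3 (8.41) and c-Myc replicate 1 (7.18). The matrix level of c-Myc replicate 1 was 9.59, and the mesenchymal level of Wnt1 replicate 4 was 6.62. The part of matrix content in the mesenchymal genes was not tested.

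**Figure D4:**
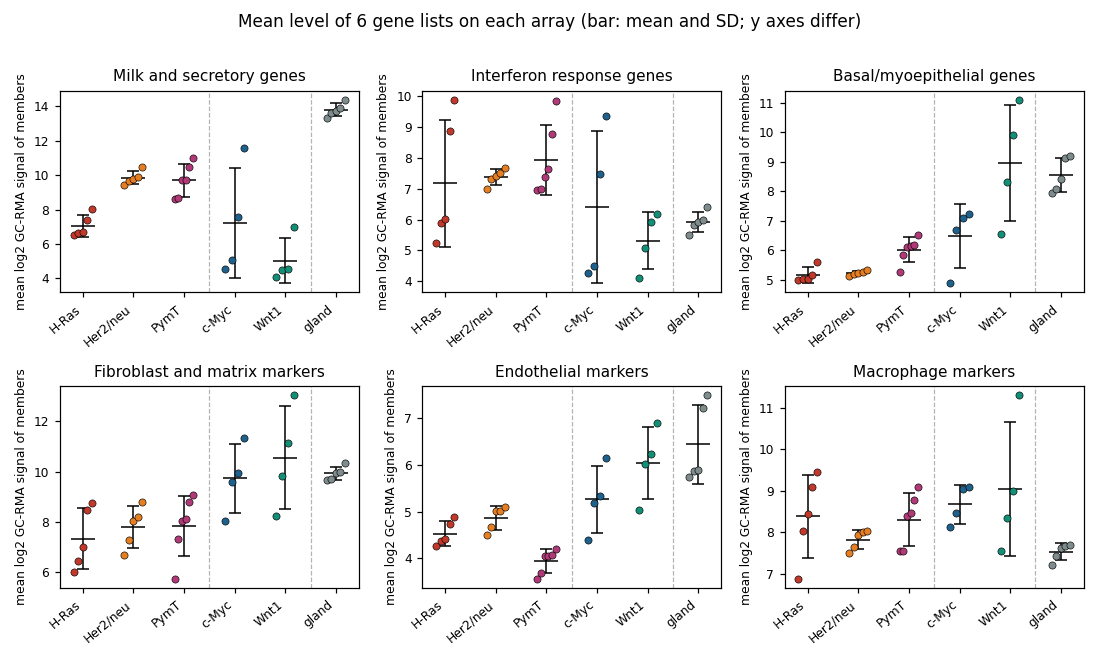
Mean log2 level of the milk, interferon, basal, fibroblast and matrix, endothelial and macrophage lists (vertical axis of each panel) in each array of the 5 tumor models and the normal gland (horizontal axis), with black bars for the mean ± SD of a model. Matrix levels run from 5.76 to 9.06 in the kinase and Ras tumors and from 8.05 to 13.03 in the Myc and Wnt1 tumors, and MMTV-Wnt1 replicate 3 gives the highest matrix and macrophage points of the tumors.

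Interferon response genes were higher in the kinase and Ras tumors for 8 of 21 members, all with separated means, and higher in the others for 0 (median 1.80). Ifit1, whose upstream matches are shown above, was at 7.31, 8.65, 7.93, 7.74 and 8.03 in MMTV-Her2/neu and, in MMTV-PymT, at 7.23 at the lowest, 8.21 at the median and 10.74 at the highest. In MMTV-H-Ras it was at 2.28, 2.13, 2.83, 12.0 and 8.77, with replicates 4 and 5 high and 1 to 3 at the floor. It was at 9.81, 8.09, 2.13 and 2.17 in c-Myc and 2.23, 3.78, 3.18 and 2.07 in Wnt1 tumors, so that c-Myc replicates 1 and 2 were as high as the kinase tumors. Oas1a was at 6.77, 10.06 and 12.41 against 4.24, 6.54 and 12.02 (lowest, median and highest), 6.49-fold apart. Usp18, which removes ubiquitin-like tags set by interferon, and Oasl2 repeated the pattern of Ifit1 across tumors and were 11.7- and 6.67-fold higher. Stat2, a transcription factor of the interferon pathway, was 2.81-fold higher (1.49 ± 0.43, SE).

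Genes that interferon gamma induces were among those measured in the list. Irgm1, an immunity-related GTPase, was at 10.53, 11.08, 11.1, 10.26 and 11.27 in MMTV-H-Ras and at 9.0 to 9.49 in MMTV-Her2/neu, and the whole side lay at 8.59 to 11.27 against 5.3 to 10.23. The immunoproteasome subunits Psmb8 and Psmb9 were 4.5- and 5.29-fold higher. Not every such gene was called. Cxcl9, Cxcl10 and Gbp2 had differences of -0.097, 0.003 and 0.404, and Igtp, Gbp3 and Tap1 of 2.072, 1.475 and 1.346, all not called. The mean level of the interferon list ranged from 5.24 to 9.89 in the kinase and Ras tumors and from 4.12 to 9.37 in the others. Its count of 8 rose to 13 without c-Myc replicate 1 and fell to 5 without c-Myc replicate 3 or 4, and 0 were called with model as a random block in limma, where 5 had an unadjusted p below 0.05. Against the gland 3, 5, 8, 0 and 0 of the 21 were higher in H-Ras, Her2/neu, PymT, c-Myc and Wnt1 tumors. The shares of all genes that were higher were 12.2%, 19.2%, 16.4%, 15.8% and 13.8%, in the same order.

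Some genes of the cell cycle were higher in the Myc and Wnt1 tumors. Of 26 proliferation genes, 4 were called higher there, where 6.94% of all genes were, and 0 in the others (median -0.59), and Mcm7 alone was called with a random block for model. Mcm7, a subunit of the replicative helicase, was at 11.92, 12.39 and 13.09 against 10.5, 11.34 and 11.96 (lowest, median and highest), 2.32-fold apart, and Mcm6, Top2a and Bub1b were 2.05-, 2.01- and 2.07-fold higher. The 4 fell to 1 without c-Myc replicate 3, c-Myc replicate 4 or Wnt1 replicate 2. All 5 models were above the gland in most of the list, with 21 to 24 of 26 genes higher, against 12.2% to 19.2% of all genes. Among 17 cyclins, inhibitors and pocket proteins, 2 were called higher in the Myc and Wnt1 tumors, where 6.94% of all genes were. In the kinase and Ras tumors 0 were, but 2 without c-Myc replicate 2 and 3 without Wnt1 replicate 2. With a random block for model, 0 of the 17 were called. Ccnd2, a D-type cyclin, was 14.5-fold higher in the Myc and Wnt1 tumors. It was at 10.08, 10.4, 7.58 and 9.73 in Wnt1 and 9.79, 7.09, 11.91 and 4.57 in c-Myc tumors against 2.31 to 7.64. The cyclin kinase inhibitor Cdkn2b was 6.52-fold higher.

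Some metabolic genes differed between the sides. Of 18 fatty acid and sterol synthesis genes, 3 were called higher in the kinase and Ras tumors and 0 in the others (median 0.64). Over all genes, 10.1% were called higher in the kinase and Ras tumors. The 3 became 5 without c-Myc replicate 2 or Wnt1 replicate 2, and Me1 alone was called with a random block for model. Me1, a source of NADPH for fatty acid synthesis, was at 13.0 to 13.73 in MMTV-Her2/neu, 10.08 to 11.76 in MMTV-H-Ras and 10.6 to 11.93 in MMTV-PymT against 7.61 to 10.92 in the Myc and Wnt1 tumors, a 5.46-fold difference. Srebf1, the master regulator of lipid synthesis, was 3.76-fold higher with Her2/neu tumors at 13.65 to 14.32 and H-Ras tumors at 9.41, 10.14, 11.37, 12.63 and 11.04, of which replicate 4 alone lay above the range of the other side (8.65 to 11.48), and Lss, a sterol enzyme, 2.34-fold. Of 16 glycolysis and hypoxia genes, 3 were called higher in the kinase and Ras tumors and 1 in the others (median 0.25). Egln3, an oxygen sensor, Car9, a hypoxia-induced carbonic anhydrase, and Hk1, a hexokinase, were 4.35-, 4.15- and 2.69-fold higher in the kinase and Ras tumors. P4ha1, an enzyme of collagen maturation, was 3.58-fold higher in the Myc and Wnt1 tumors. P4ha1 was not called without c-Myc replicate 3, and limma with a random block for model called 0 of the 16 (3 at an unadjusted p below 0.05).

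Acute phase and mucosal defence genes were called higher in the kinase and Ras tumors in 3 of 10 cases, against 10.1% of all genes. Under the random block for model, limma called 0 of them and 3 had an unadjusted p below 0.05. Pigr, the receptor that carries immunoglobulins across epithelia, was at 13.21, 14.04, 13.47, 9.31 and 13.18 in MMTV-H-Ras, 7.42, 8.52, 8.5, 7.28 and 7.86 in MMTV-Her2/neu and 9.13 to 11.37 in MMTV-PymT. It was at 3.87, 9.82, 1.97 and 2.93 in c-Myc and 2.72, 10.47, 2.15 and 3.81 in Wnt1 tumors, with 1 high tumor in each, and the difference was 5.52 ± 0.94 (SE), or 45.9-fold. Lcn2, an iron-scavenging secreted protein, was at 14.15 to 15.04 in the kinase and Ras tumors, at 14.61, 14.04, 13.88 and 13.32 in c-Myc tumors and at 10.61, 13.09, 4.9 and 13.45 in Wnt1 tumors. Of the c-Myc tumors, replicate 1 lay within the kinase and Ras range and the others below it, and Wnt1 replicates 1 and 3 were the lowest. Lbp was 4.36-fold higher. In MMTV-H-Ras, Pigr and Lbp were lowest in replicate 4 (9.31 and 6.74), the H-Ras tumor without high salivary gland markers. The high Wnt1 tumor for Pigr, replicate 2, had high salivary markers, and the high c-Myc tumor, replicate 2, did not. Lbp was at 12.65 to 13.24 in MMTV-Her2/neu, where no tumor had high salivary markers. The part of salivary tissue in Pigr and Lbp was not tested. Saa1 was not called. It was at 11.04 to 13.67 in MMTV-PymT and in c-Myc replicate 2 at 13.98, against 2.45 to 2.66 in MMTV-H-Ras. The 3 became 6 without c-Myc replicate 2.

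Salivary gland markers (median 1.91) were called higher in the kinase and Ras tumors in 3 of 10 cases, against 10.1% of all genes. The 3 were Prol1, Dcpp1 and Smr2. In MMTV-H-Ras, 7 of the 10 were higher than in the mean of the other kinase models, where 6.36% of all genes were. Bpifa2, a protein of parotid saliva, was at 15.34, 15.47, 15.28, 9.73 and 15.43 in MMTV-H-Ras and at 14.33 and 14.58 in PymT replicate 2 and Wnt1 replicate 2. It was at or below 5.87 in the other PymT tumors and at 2.11 to 4.9 in MMTV-Her2/neu, so the high tumors were single arrays outside MMTV-H-Ras. Dcpp1, a salivary mucosal protein, followed the same arrays, with 15.25, 15.02, 15.29, 8.7 and 13.26 in MMTV-H-Ras, and Smr2 was 3.85-fold higher. Of the 10, Prol1 alone was called with a random block for model. The part of salivary tissue in these genes was not tested.

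**Figure D5:**
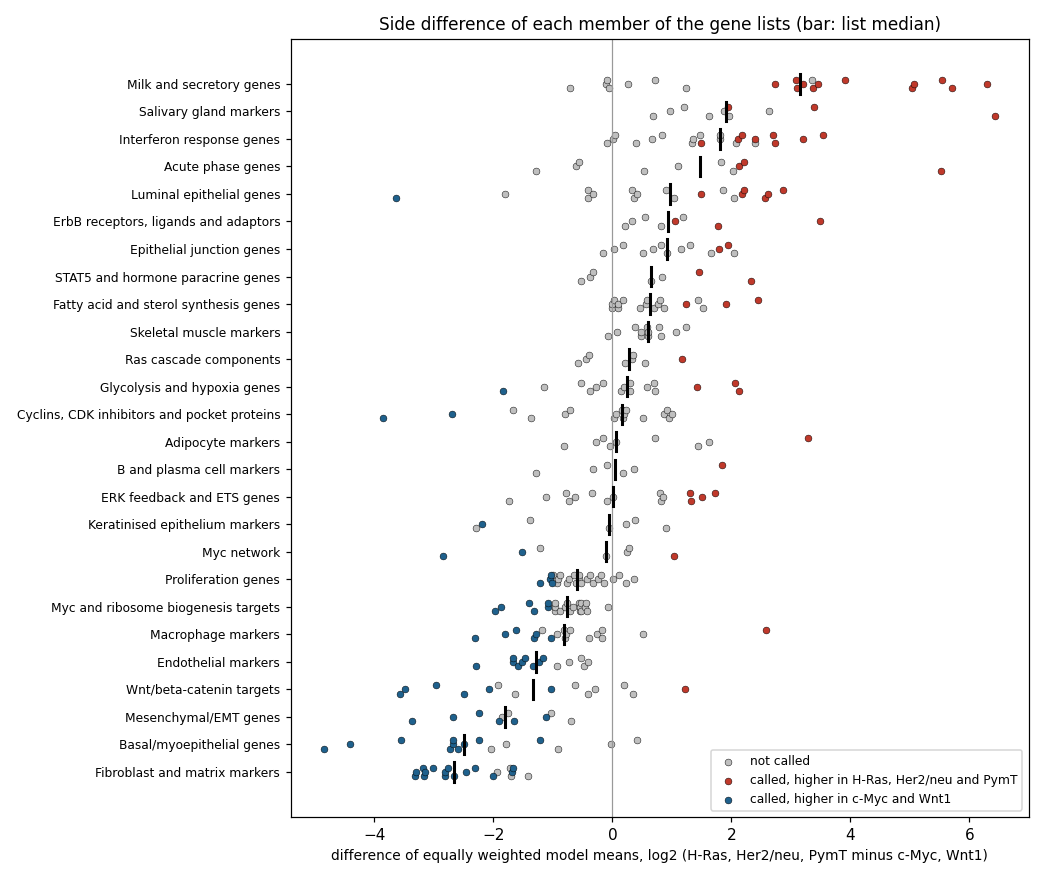
Side difference in log2 (horizontal axis, kinase and Ras minus Myc and Wnt1) of every measured member of each gene list with at least 6 members (vertical axis). Points are genes, coloured where called in either direction, and the bar is the median of the list. The milk list has the highest median (3.15) and the fibroblast and matrix list the lowest (-2.66).

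The remaining contrasts show where a side was uneven, and they use other differences than the side contrast, although genes picked for separated means cannot differ freely within a side. Between c-Myc and Wnt1 tumors, 332 genes (3.56%) were higher and 249 (2.67%) lower in c-Myc tumors by limma with Benjamini-Hochberg adjustment. Between MMTV-H-Ras and the mean of the other kinase models, 593 (6.36%) were higher and 1255 (13.5%) lower. Between MMTV-Her2/neu and MMTV-PymT, 412 (4.42%) were higher and 346 (3.71%) lower in MMTV-Her2/neu. Egf was higher in Her2/neu than in PymT tumors by 2.94 ± 0.66 (SE, adjusted p = 0.0075). Against the 5 glands, which all 5 comparisons share, 1138 genes (12.2%) were higher and 1262 (13.5%) lower in MMTV-H-Ras, 1793 (19.2%) and 1118 (12.0%) in MMTV-Her2/neu, 1527 (16.4%) and 1054 (11.3%) in MMTV-PymT, 1473 (15.8%) and 1312 (14.1%) in c-Myc tumors, and 1289 (13.8%) and 1194 (12.8%) in Wnt1 tumors.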

How the data were processed

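The deposited values were log2 intensities of 46 Affymetrix Mouse Genome 430A 2.0 arrays, which the authors made with GC-RMA in Partek from scanner files and reduced to 18586 probe sets by a filter on detection calls, with versions not given in the sources used here. RNA came from whole tumors or glands. A platform table gave 16962 probe sets 1 gene, 569 several and 1055 none. Genes with a log2 value above 4 in at least 3 arrays were kept, each by its probe set of highest mean, which left 9329. Other probe sets repeated the call between the sides in some named genes and not in others. Those not called included probe sets of Krt14 (-0.47), Trp63 (-0.51), Mcm6 (-0.21), Dpysl3 (-0.13), Marveld1 (-0.95) and P4ha1 (-0.83). Differences were fitted with limma 3.58.1 (R 4.3.3) on 24 tumors with 1 mean per model, and against the gland on 29 arrays, with Benjamini-Hochberg adjustment over all genes. The fit was tested on simulated data. Depth has no counterpart on arrays, and the number of arrays limits the precision.

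The members and gene lists were chosen with earlier results of these data known. Genes were named by rule, namely the 10 largest separated differences and the 8 widest gaps between arrays per direction, Myc and Erbb2, up to 4 called list members per direction, up to 3 members of lists called within a side, and 7 defining genes. Further called members were named after their values were seen (Folr1, Xdh, Slc34a2, Kit, Cldn3, Acta2, Myh11, Bgn, Egfl7, Lyz2, Vim, Nkd1, Bop1, Stat2, Psmb8 and Psmb9). Mlx, Ocln, Prss8, Cd36, Pkp1, Thy1, Mmp9 and Blnk fall under the rule for called list members. They are not among the 137 named genes on which the counts of named genes below rest. No batch or scan date was given. Replicate numbers did not pair the samples, since deviations of 43 same-numbered pairs correlated at 0.0098 on average. Alternatives covered filters, probe set choice, centring, normalization, weighting, each model and each array left out, and the model as a random block. Some genes were not reported here.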

Additional observations from a re-analysis of the deposited data

Results flagged for a closer look

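In 83 of 685 combinations of a named gene and a model, the highest or lowest tumor stood apart from the rest of its model by Dixon's criterion, which chance alone passes in about 1 in 20 groups. The 42 in which the model spanned at least 3 log2 units are given here. MMTV-Wnt1 replicate 3 was low in Epcam (3.6), Kit (4.81), Ehf (2.94), Cldn3 (6.99), Krt5 (2.99), Rnf43 (3.1), Wif1 (2.85), Mansc1 (6.73) and Enpp3 (2.7), and high in Msr1 (11.43). MMTV-H-Ras replicate 4 was high in Lalba (13.75), Muc15 (13.05), Slc34a2 (8.41) and Moxd1 (8.52), and low in Pigr (9.31), Lbp (6.74) and Bpifa2 (9.73). MMTV-c-Myc replicate 2 was high in Saa1 (13.98), Btn1a1 (10.24), Prol1 (9.91), Foxi1 (6.68), Spdef (6.13) and Myh11 (5.8).

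MMTV-Wnt1 replicate 2 was high in Bpifa2 (14.58), Car6 (12.63), Dcpp1 (11.17), Scgb2b27 (9.0) and Spdef (6.4), MMTV-PymT replicate 2 in Bpifa2 (14.33) and Prol1 (14.21), and MMTV-Wnt1 replicate 4 in Btn1a1 (10.27), Thrsp (8.35), Csn1s1 (8.0) and Csn2 (7.82). Single values stood apart in MMTV-c-Myc replicate 4 (Bpifa2 9.69 and Zeb2 4.34), MMTV-c-Myc replicate 3 (Prrx1 9.56), MMTV-H-Ras replicate 1 (Snai2 6.49), MMTV-Her2/neu replicate 1 (Dcpp1 5.71), MMTV-PymT replicate 5 (Folr1 9.47), MMTV-PymT replicate 6 (Krt5 4.6) and MMTV-Wnt1 replicate 1 (Smr2 6.44).

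The models of the Myc and Wnt1 side differed from each other in 24 named genes by limma at an adjusted p below 0.05. Some of these genes were named because they were called in this same contrast, so their number is no measure of how often the models differed. Over all genes, 3.56% were higher and 2.67% lower in c-Myc tumors. c-Myc exceeded Wnt1 tumors in Thrsp (6.06), Car6 (5.34), Csn3 (4.32), Tesc (3.91), Myc (3.02), 1500002F19Rik (2.24), Cad (1.72) and Nop56 (1.47). c-Myc tumors were lower in Wif1 (-6.57), Moxd1 (-5.84), Axin2 (-4.44), Antxr1 (-4.05), Krt14 (-3.52), Gpc1 (-3.32), Dpysl3 (-3.14), Dkk3 (-3.1), Snai2 (-3.08), Apcdd1 (-2.92), Cav1 (-2.9), Tagln (-2.83), Sparc (-1.9), Cldn5 (-1.88), Nkd1 (-1.77) and Cish (-1.44).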

How the results depend on the processing

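The side counts of 940 and 647 were within 1.5 times under median centring, quantile normalization, other filters, the mean of probe sets, equal weight for each array and all 46 arrays in the fit. Treating the model as a random block (correlation within models 0.2633) gave 170 and 86, with 1030 and 689 genes at an unadjusted p below 0.05, and 87 of the 125 named genes called between the sides lost their call. Leaving out MMTV-Her2/neu gave 586 higher genes. Leaving out a model reversed Bpifa2 (-0.83 without MMTV-H-Ras), Saa1 (-1.20 without MMTV-PymT) and Wif1 (1.37 without MMTV-Wnt1), which were not called. Erbb2 ranged from -0.0228 to 0.52 with 1 array left out, the lowest without MMTV-Wnt1 replicate 3. With 1 array left out the side counts ranged from 827 to 1048 and from 522 to 735, c-Myc against Wnt1 from 440 to 710 and H-Ras against the other kinase models from 1201 (without MMTV-H-Ras replicate 2) to 2134. Her2/neu against PymT ranged from 449 to 922 around 758, with 503, 449 and 467 without MMTV-Her2/neu replicates 2, 3 and 5 and 501 without MMTV-PymT replicate 4. The cause was not tested. Counts against the gland ranged from 2066 to 2520 in MMTV-H-Ras, 2614 to 3010 in MMTV-Her2/neu, 2344 to 2699 in MMTV-PymT, 2401 to 2912 in MMTV-c-Myc and 2206 to 2556 in MMTV-Wnt1. With the replicate number as a block, although the numbers do not pair the samples, the counts were 922 and 588 between the sides and 450, 1808 and 676 within them. List counts under every alternative, and the fit without MMTV-Wnt1 replicate 3, MMTV-c-Myc replicate 2 and MMTV-PymT replicate 2 together, were added after seeing the data.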

Other observations

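Markers of the other tissues that a mammary tumor block can hold varied between single tumors of both sides. Skeletal muscle markers had a mean log2 level of 8.60 in MMTV-Wnt1 replicate 4, 7.60 in MMTV-H-Ras replicate 4 and 7.93, 8.59, 5.76 and 8.18 in MMTV-PymT replicates 1 to 4, against a median of 3.03 in the kinase and Ras tumors and 3.22 in the others, and 0 of 12 members were called between the sides. Adipocyte markers were highest in MMTV-c-Myc replicate 2 (7.61), and 1 of 9 (Cd36) was called higher in the kinase and Ras tumors. Keratinised epithelium markers were highest in MMTV-Wnt1 replicate 1 (7.06), MMTV-PymT replicate 4 (6.56) and MMTV-Wnt1 replicate 4 (6.06), with 1 of 7 (Pkp1) called higher in the Myc and Wnt1 tumors. B and plasma cell markers were highest in MMTV-PymT replicate 2 (7.81), the array with the highest salivary marker level (12.23). Of the 2 measured T cell markers 1 (Thy1), and of the 4 neutrophil markers 1 (Mmp9), were called higher in the Myc and Wnt1 tumors, of 6 B and plasma cell markers 1 (Blnk) was called higher in the kinase and Ras tumors, and 0 of the 2 erythroid markers were called.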
